A study of Mus musculus with 12 samples.

Results

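The Ube2 genes encode the E2 enzymes of mouse, the ubiquitin-conjugating enzymes, and their messenger RNA was measured here in ovulated oocytes from females on a high-fat or a control diet. The set was taken by name: every gene in the count table whose symbol starts with Ube2, except Ube2s, which made 36 of 24062 genes. Of these, 29 passed the filter on low counts and are among the 9935 genes tested. The high-fat diet (HFD) group had eaten a modified D12492 feed (E15741-34) for 9 weeks before mating, and the control diet (CD) group had eaten the feed named D12492 for as long. Both groups ate the control diet during mating, both were mated with vasectomized males, so that no egg was fertilised, and oocytes were taken on day 0.5 after mating. The labels name both feeds by the same product code, so the content of the control feed is uncertain. They give no strain and no age. A library holds the RNA of 4 pooled oocytes, and each diet has 6 libraries, numbered 1 to 6 in the labels. There were 6 females per diet, and nothing links a female to a pool. The p-values below therefore measure the spread between pools, which may be technical in part.

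Ubiquitin is a small protein that is attached to other proteins in a relay. An E1 enzyme activates it, an E2 enzyme carries it on a cysteine, and an E3 ligase brings the loaded E2 to the protein to be marked. The E2 often decides which kind of chain is built: chains linked through lysine 48 send proteins to the proteasome, while chains linked through lysine 63 mostly serve in signalling and repair. A few E2s carry ubiquitin-like proteins instead, such as NEDD8 or ISG15. An ovulated egg makes almost no new RNA, so its messages are those stored during growth, and the exit from its metaphase arrest depends on the destruction of cyclin and securin by ubiquitin marking. In pools of whole oocytes, less RNA of a gene per oocyte and fewer oocytes that hold it cannot be told apart.

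The part of an E2 that carries ubiquitin can be read in its coding sequence. In many E2s a His-Pro-Asn motif stands shortly before the cysteine that holds ubiquitin. Of the 36 genes, 19 had a His-Pro-Asn codon run with a cysteine codon exactly 10 codons after the histidine in the coding sequence searched, and 17 did not. Among those without it are Ube2v1 and Ube2v2, which are known to lack the active cysteine, and large or diverged enzymes such as Ube2o, Ube2j1 and Ube2w. For the others a missing match says only that these codons do not stand at this spacing. The 39 coding bases that hold the motif and the cysteine are shown for 6 genes with an unadjusted p under 0.05 in the diet comparison below and for Ube2a and Ube2d3, close relatives of Ube2b and Ube2d2a. Ube2d2a carries the motif too but its bases are not shown, and Ube2u had no match. They are in mm10, on the coding strand, from transcripts of GENCODE M21, with the His-Pro-Asn codons and the cysteine codon in capitals.
Ube2c, chr2:164771947-164771985: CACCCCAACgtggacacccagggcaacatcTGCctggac
Ube2t, chr1:134971296-134971334: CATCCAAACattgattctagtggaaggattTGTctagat
Ube2a, chrX:36881737-36882627, spliced: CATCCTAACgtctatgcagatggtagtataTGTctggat
Ube2b, chr11:51988672-51991403, minus strand, spliced: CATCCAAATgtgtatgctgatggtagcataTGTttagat
Ube2n, chr10:95541403-95541441: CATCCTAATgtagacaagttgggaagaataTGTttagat
Ube2m, chr7:13036220-13036258, minus strand: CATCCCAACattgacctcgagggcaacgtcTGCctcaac
Ube2f, chr1:91276419-91278261, spliced: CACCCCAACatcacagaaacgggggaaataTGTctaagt
Ube2d3, chr3:135459999-135460037: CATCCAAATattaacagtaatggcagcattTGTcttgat
Ube2a and Ube2b share 77.6% of their aligned coding bases, Ube2d3 and Ube2d2a share 83.6%, while Ube2c and Ube2t, which both carry the motif, share 47.8%.

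The libraries held 8409491 to 13793598 gene counts in HFD and 8556396 to 10477316 in CD. HFD 3 had counts in 14755 genes, against 12229 to 13052 in the other 11 libraries. Every count in HFD 1, 2, 4 and 6 was even, and the other 8 libraries also held odd counts. Summed over 10 oocyte markers, levels were 12532 to 27546 CPM in HFD and 9922 to 19663 CPM in CD, where CPM is the gene count scaled to a common library total with TMM factors. The 14 cumulus and granulosa markers summed to 106 to 1811 CPM in HFD and 129.9 to 1350.1 CPM in CD, most of it from Serpine2. Without that gene the sums were 19.5 to 47.9 and 36.2 to 81.1 CPM, with Amh and Ptx3 at 0 in all 12 libraries. Oviduct markers summed to 7.36 to 109.9 CPM in HFD and 13.9 to 216 CPM in CD, and blood and immune markers to at most 9.39 CPM, with both alpha globin genes and Hbb-bs at 0. Cdh1 and Epcam had the highest mean levels of the 7 oviduct markers, and whether these counts came from oviduct cells was not tested.

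A single enzyme took most of the E2 counts in 11 of the 12 libraries. Ube2d3 (chromosome 3, 135438149 to 135468198), a broad enzyme that starts chains for many E3 ligases, stood at 8425, 5984, 3291, 6174, 5376 and 8225 CPM in HFD 1 to 6. In CD 1 to 6 it stood at 3159, 6245, 3971, 7188, 4254 and 4819.9 CPM. It made up 46.3% (HFD 3) to 75.6% (HFD 6) of the summed CPM of all 36 genes, and that sum was 5470 to 12101 CPM per library. Per kilobase of its longest coding transcript, Ube2d3 was at 1459 CPM per kb, and next below it was Ube2k at 170.3. Ube2t was at 141, Ube2d2a at 105 and Ube2g1 at 99.3 CPM per kb. The 23 lowest of the tested genes lay between 0.693 (Ube2o) and 42.2 CPM per kb (Ube2e3). These levels are means over all 12 libraries, and the wide ranges of Ube2t and Ube2g1 between pools mean that their places in the order differ from pool to pool.

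The 7 genes that did not pass the filter were low in nearly every pool. Ube2l6, which carries ISG15 in interferon-treated cells, and Ube2dnl2 had no count in any library. For Ube2l6 a floor of 3 counts allows up to 0.243 to 0.374 CPM, depending on the library, and this covers counting error only. Ube2dnl1 had at most 1 count, Ube2d2b 0 to 8, Ube2ql1 0 to 14 and Ube2v2, a partner of Ube2n, 0 to 24. Ube2q1 had 0 to 84 counts, with the 84 in HFD 3.

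The comparison of the diets asks whether E2 messages stored in the oocyte differed after the high-fat diet. No Ube2 gene passed the test. With edgeR's quasi-likelihood test and Benjamini-Hochberg adjustment over the 9935 tested genes, 0 of 29 had an adjusted p under 0.05, and over all tested genes 0 (0%) did, the smallest adjusted p being 0.0913. At an unadjusted p under 0.05, 7 of 29 (24.1%) were higher in HFD and 1 (3.45%) was lower. Over all tested genes those shares were 13.4% and 8.89%, so the share of higher genes was above the background and the share of lower genes below it. The count of 7 ranged from 4 (13.8%), without CD 5, to 7 (24.1%) when each library was left out in turn. The share of higher genes over all tested genes also moved, from 9.26% without HFD 3 to 13.8% without HFD 2. Without CD 5 that share was 10.3%. The count was 2 of 29 (6.9%) with both replicates numbered 3 left out, where the background was 7.26%. Scaled by total gene counts alone, 5 of 29 (17.2%) were higher and 1 was lower, against 10.9% and 12.7% of all tested genes. Fold changes were above 0 for 21 of 29 and below 0 for 8, with a median log2 fold change, HFD minus CD, of 0.35. Over all tested genes 51.8% were above 0 and the median was 0.04. With total gene counts those medians were 0.20 and -0.06. DESeq2 called 2 of 29, Ube2c and Ube2t, while it called 7.28% of the genes it tested. The CPM of the 6 HFD and the 6 CD libraries did not overlap for 1 of 29 genes, Ube2d2a, against 2.45% of all tested genes.

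**Figure D1:**
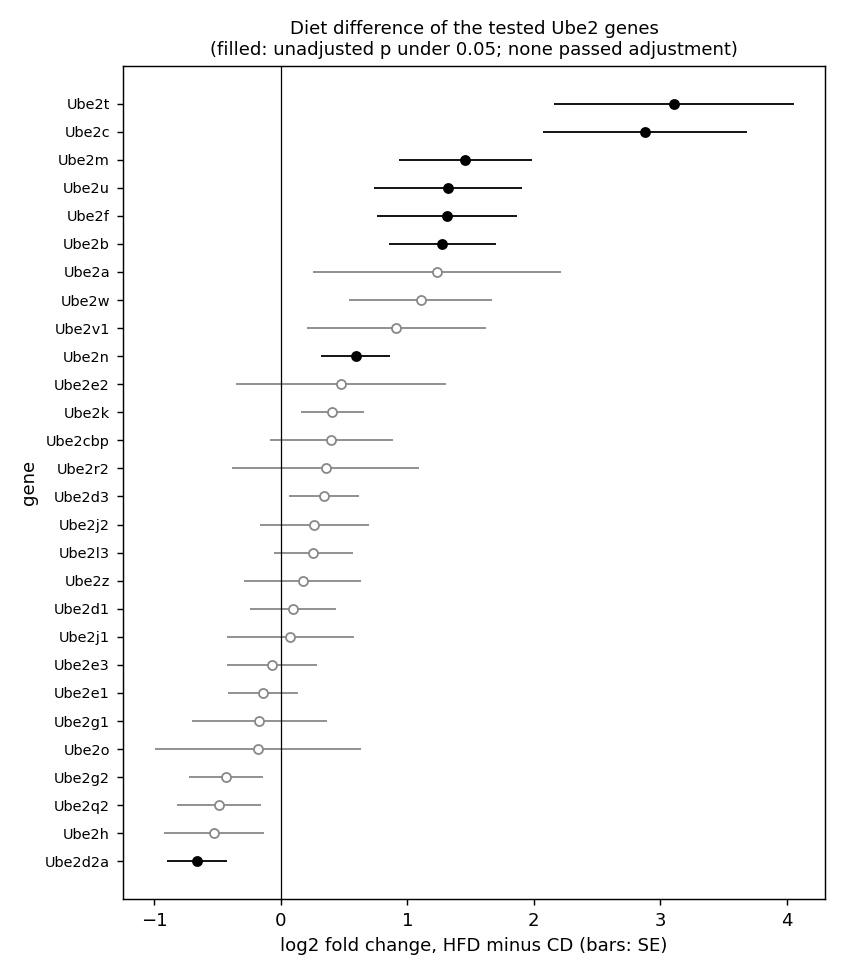
Log2 fold change (HFD minus CD) of 28 tested Ube2 genes, with bars for the SE and filled points for an unadjusted edgeR p under 0.05. The points run from -0.66 for Ube2d2a to 3.11 for Ube2t, and none passed the adjustment.

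Ube2c is the E2 that starts ubiquitin chains for the anaphase-promoting complex, the ligase that ends metaphase. It lies on chromosome 2, 164769898 to 164778822. It stood at 93.1, 58.6, 307, 73.8, 18.003 and 7.28 CPM in HFD 1 to 6. In CD 1 to 6 it stood at 3.89, 16.3, 9.74, 27.9, 2.41 and 15.5 CPM. HFD 1, 2, 3 and 4 lay above every CD library, and HFD 5 and 6 lay within the CD range. The means were 92.9 ± 109.7 CPM (SD, n = 6) in HFD and 12.6 ± 9.43 CPM in CD. The log2 fold change was 2.88 ± 0.80 (SE), with an adjusted p of 0.0956 in edgeR. Without HFD 3 it was 1.99. With DESeq2 the adjusted p was 0.00642, and over the alternatives tried it ran from 0.00642 to 0.335.

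The enzymes of DNA damage and histone marking had fold changes above 0 for 3 of 3 genes, where 51.8% of all tested genes did, and 2 of them had an unadjusted p under 0.05, where 13.4% of all tested genes were higher. Ube2t (chromosome 1, 134962565 to 134974162) works with Fancl to mark the Fanconi anaemia proteins at DNA crosslinks. It stood at 17.7, 24.5, 997, 513, 51.7 and 88.7 CPM in HFD 1 to 6 and at 31.3, 7.40, 35.4, 18.6, 22.1 and 81.5 CPM in CD 1 to 6. The difference rested on HFD 3 and HFD 4, since HFD 6 was just above CD 6 and HFD 1, 2 and 5 lay within the CD range. The log2 fold change was 3.11 ± 0.95 (adjusted p = 0.104, edgeR), 2.09 without HFD 3 and 1.89 with the trend on transcript length removed. DESeq2 gave Ube2t an adjusted p of 0.00934, and its adjusted p ran from 0.00934 to 0.394 over the alternatives.

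Ube2a and Ube2b are the mouse versions of yeast Rad6. They mark histone H2B with Rnf20 and the clamp protein PCNA with Rad18, and eggs of females that lack Ube2a give embryos that stop early. Ube2b (chromosome 11, 51985497 to 52000762) stood at 38.4, 38.8, 176, 55.8, 31.1 and 44.3 CPM in HFD 1 to 6 and at 33.0, 19.5, 17.0, 29.0, 27.5 and 32.7 CPM in CD 1 to 6. All HFD libraries but HFD 5 lay above every CD library, and HFD 3 stood far above the rest. Its log2 fold change was 1.28 ± 0.43 (adjusted p = 0.115, edgeR), 0.64 without HFD 3 and 0.80 with the length trend removed. Its unadjusted edgeR p of 0.00897 became 0.0572 with both replicates 3 left out. Ube2a (chromosome X, 36873900 to 36884222), described here after its values were seen, stood at 119, 174, 234, 26.9, 9.10 and 9.49 CPM in HFD 1 to 6 and at 5.42, 108, 4.63, 108, 9.75 and 8.18 CPM in CD 1 to 6. High and low libraries occurred under both diets, so the diet means of 95.5 ± 95.4 and 40.6 ± 52.1 CPM (SD, n = 6) overlapped widely, with a log2 fold change of 1.24 ± 0.98 (adjusted p = 0.483, edgeR). It was 0.73 without HFD 3.

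**Figure D2:**
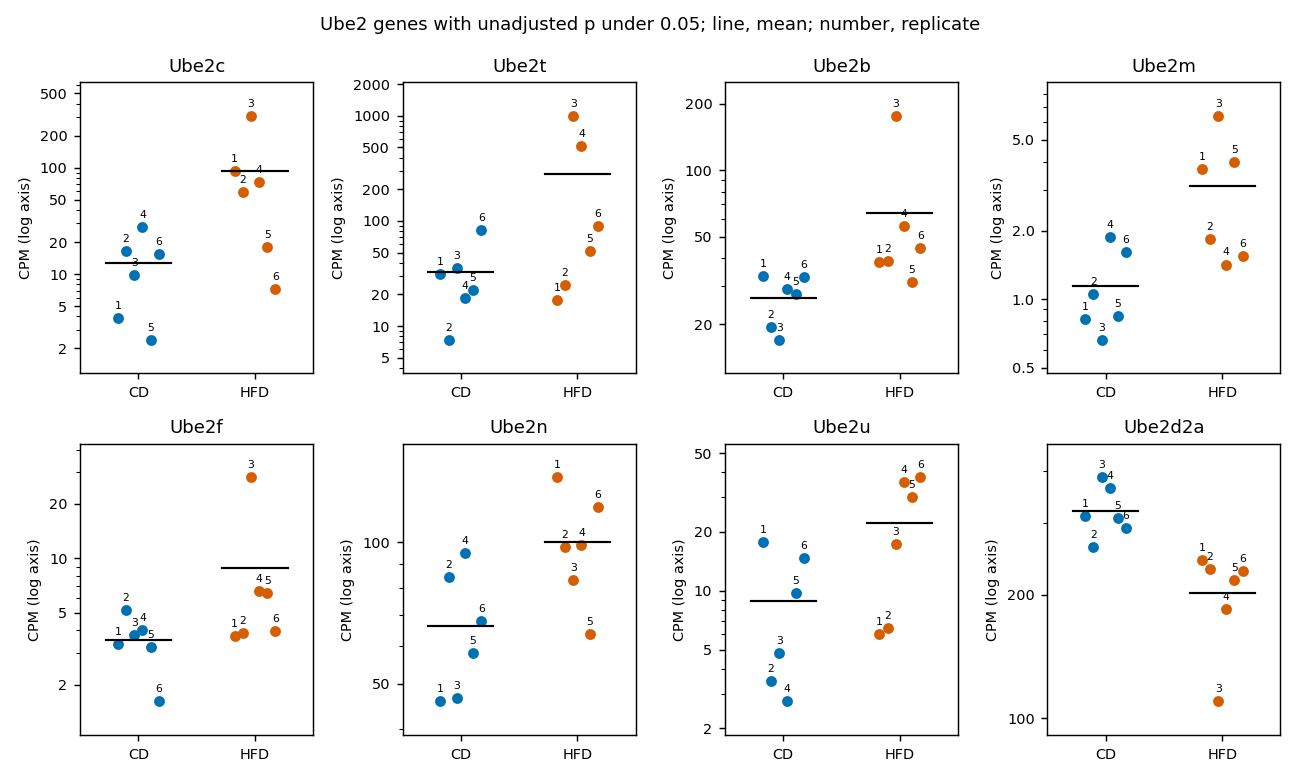
CPM on a log axis in each library for the 8 Ube2 genes with an unadjusted edgeR p under 0.05, with CD in blue, HFD in orange, the replicate number at each point and a line at the mean. For Ube2d2a all 6 HFD points lie below the CD points, while for Ube2t the HFD mean of 282 CPM is drawn up by HFD 3 and HFD 4.

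Ube2n builds lysine 63 chains together with Ube2v1 or Ube2v2, which are E2 variants without an active cysteine. Ube2n (chromosome 10, 95515145 to 95545657) stood at 138, 98.0, 83.2, 98.6, 63.6 and 119 CPM in HFD 1 to 6 and at 45.8, 84.5, 46.6, 94.9, 58.2 and 68.0 CPM in CD 1 to 6. HFD 1, 2, 4 and 6, the libraries with even counts, lay above every CD library, and HFD 3 and 5 lay within the CD range. The log2 fold change was 0.59 ± 0.27 (adjusted p = 0.219, edgeR), and 0.08 over the 8 libraries with odd counts. Ube2v1 was low, at 0.380 to 10.4 CPM, and per kilobase of transcript it stood at 1.37 CPM per kb against 21.5 for Ube2n.

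The carriers of ubiquitin-like proteins had fold changes above 0 for 4 of 4 tested genes, against 51.8% of all tested genes. The NEDD8 carriers Ube2m and Ube2f had an unadjusted p under 0.05, where 13.4% of all tested genes were higher. With both replicates 3 left out, the unadjusted edgeR p was 0.0769 for Ube2m and 0.257 for Ube2f. NEDD8 switches on the cullin ligases, and Ube2m serves those that hold Rbx1 while Ube2f serves those that hold Rnf7. Ube2m (chromosome 7, 13035120 to 13038275) was low, at 3.73, 1.84, 6.38, 1.42, 3.99 and 1.54 CPM in HFD 1 to 6 and at 0.813, 1.06, 0.662, 1.87, 0.838 and 1.62 CPM in CD 1 to 6. HFD 1, 3 and 5 lay above every CD library. The log2 fold change was 1.46 ± 0.53 (adjusted p = 0.134, edgeR), and 0.87 with the length trend removed. Ube2f (chromosome 1, 91250304 to 91290337) stood at 3.73, 3.87, 28.1, 6.62, 6.44 and 3.97 CPM in HFD 1 to 6 and at 3.34, 5.19, 3.78, 3.99, 3.25 and 1.62 CPM in CD 1 to 6. HFD 3 was far above all other pools, and its log2 fold change of 1.31 ± 0.55 (adjusted p = 0.184, edgeR) was 0.47 without HFD 3. Ube2z, which works with the E1 Uba6, ranged from 2.62 to 21.5 CPM, with a log2 fold change of 0.17 ± 0.46.

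Among the broad enzymes, 4 of 7 tested genes had fold changes above 0 and 3 below, with a median of 0.10, against 0.04 over all tested genes. Ube2d2a (chromosome 18, 35771558 to 35809494) is a close relative of Ube2d3 and starts chains for many of the same ligases. It stood at 244, 231, 110.1, 184, 217 and 229 CPM in HFD 1 to 6 and at 311, 262, 387, 363, 308 and 291 CPM in CD 1 to 6. Every HFD library lay below every CD library, with means of 203 ± 49.6 and 320.3 ± 46.4 CPM (SD, n = 6) and a log2 fold change of -0.66 ± 0.24 (adjusted p = 0.131, edgeR). The log2 fold change of Ube2d2a was -0.55 without HFD 3 and -0.49 with both replicates 3 left out. Over the libraries with odd counts it was -1.02. For Ube2d3 the diets overlapped, at 6246 ± 1909 and 4939 ± 1507 CPM, with a log2 fold change of 0.34 ± 0.28 (adjusted p = 0.497, edgeR) that was -0.24 over the libraries with odd counts. Ube2w, which attaches ubiquitin to the amino end of proteins and is described here after its values were seen, stood at 139.8, 143, 318, 64.5, 35.9 and 34.9 CPM in HFD 1 to 6. In CD 1 to 6 it stood at 35.4, 85.2, 17.9, 114, 52.7 and 36.9 CPM. Its log2 fold change was 1.10 ± 0.57 (adjusted p = 0.265, edgeR), and 0.54 without HFD 3. Ube2d1, Ube2e1 and Ube2e3 had fold changes between -0.14 and 0.10 on the log2 scale, and over the libraries with odd counts Ube2d1 was at -0.82. With the length trend removed Ube2e1 was at -0.74. Ube2e2 was at 0.0904 to 19.6 CPM with a log2 fold change of 0.48 ± 0.83, which was 0.13 without HFD 1 and 1.16 without CD 4.

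Related enzymes were then compared within each library, where library size and scaling drop out. Of 9 pairs, 7 could be tested, because Ube2v2 and Ube2q1 had fewer than 10 counts in most libraries. The log2 ratio of Ube2d3 to Ube2d2a counts (1 added to each) was 5.11, 4.69, 4.90, 5.06, 4.63 and 5.17 in HFD 1 to 6. It was 3.35, 4.57, 3.36, 4.31, 3.79 and 4.05 in CD 1 to 6, so every HFD library lay above every CD library. The means were 4.93 ± 0.23 and 3.90 ± 0.50 (SD, n = 6), a difference of 1.02 (two-sided exact permutation test over 924 assignments, p = 0.00216, the smallest it can give; adjusted over the 7 pairs, p = 0.0152). Ube2d2a alone already did not overlap between the diets in these libraries. Its log2 fold change was -0.66, against 0.34 for Ube2d3, so the ratio is not a separate result. With each library left out in turn, the difference was 0.91 to 1.16 and the adjusted exact p 0.0152 to 0.0303. Over the 2 HFD and 6 CD libraries with odd counts it was 0.86 (exact p = 0.0714, adjusted 0.5), where the smallest possible exact p is 0.0357. With both replicates 3 left out it was 0.92 with the smallest possible exact p of 0.00794, and the adjusted p was 0.0556. The longest run of bases shared by the transcripts compared for the pair is 42. Only a read of at most 42 bases could therefore match both of them exactly. The share of tallied reads that aligned to more than 1 place was 26.8% to 35.7% in HFD and 18.6% to 26.5% in CD, and its part in the ratio was not tested.

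**Figure D3:**
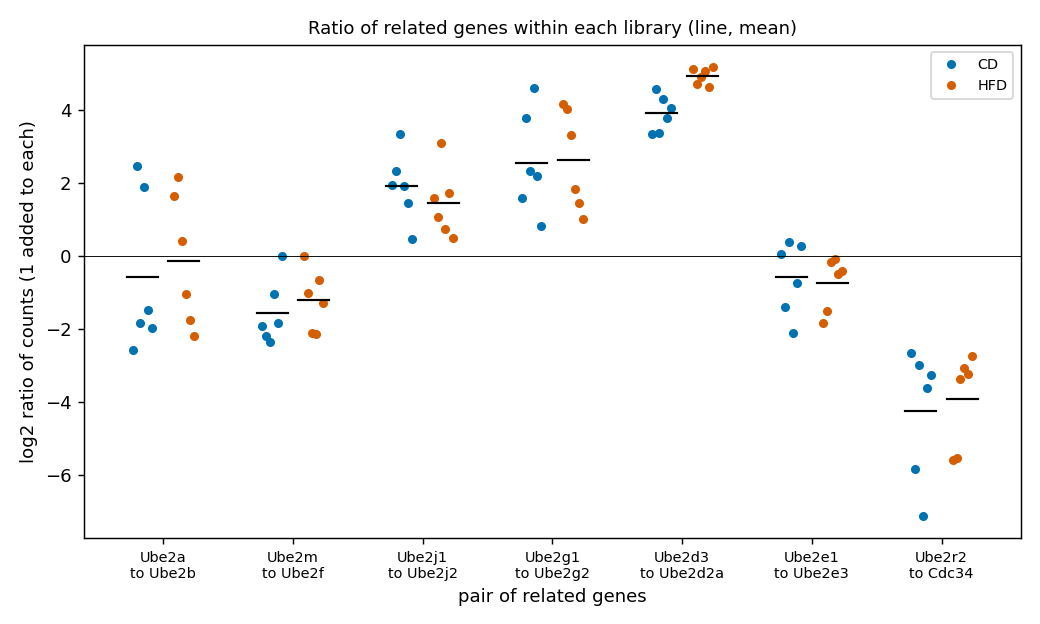
Log2 ratio of counts (1 added to each) of 7 pairs of related genes in each library, with CD in blue, HFD in orange and a line at the mean of each diet. The ratio of Ube2d3 to Ube2d2a is the one whose diets do not overlap, at 4.63 to 5.17 in HFD and 3.35 to 4.57 in CD.

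The other 6 pairs had adjusted exact permutation p-values of 0.856 to 0.929. The difference in log2 ratio was 0.46 for Ube2a to Ube2b, 0.35 for Ube2m to Ube2f and 0.32 for Ube2r2 to Cdc34, a relative that serves the same cullin ligases. It was 0.09 for Ube2g1 to Ube2g2, -0.17 for Ube2e1 to Ube2e3 and -0.46 for Ube2j1 to Ube2j2. For Ube2a to Ube2b the ratio ran from -2.58 (CD 1) to 2.46 (CD 2) within the control diet, a spread far larger than the difference between diets.

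The enzymes that build lysine 48 chains or feed the proteasome had 2 of 5 fold changes above 0 and 3 below, a median of -0.17 against 0.04 over all tested genes, and none had an unadjusted p under 0.05. Ube2k (chromosome 5, 65537233 to 65598988), which can build lysine 48 chains without a ligase in the test tube, stood at 1021, 862, 571, 1395, 900.1 and 948 CPM in HFD 1 to 6. In CD 1 to 6 it stood at 848, 706, 506, 740.1, 570.2 and 929 CPM. The diets overlapped, with a log2 fold change of 0.41 ± 0.25 (adjusted p = 0.349, edgeR) that was -0.01 over the libraries with odd counts. Ube2g2, which serves ligases of the endoplasmic reticulum, was at 35.7 to 61.8 CPM in HFD and 37.0 to 93.0 CPM in CD, with a log2 fold change of -0.43 ± 0.29. Ube2h, the E2 of the CTLH ligase, was at 42.9 to 90.7 CPM in HFD and 33.1 to 159 CPM in CD, with a log2 fold change of -0.53 ± 0.39. Ube2g1 and Ube2r2 had log2 fold changes of -0.17 ± 0.53 and 0.35 ± 0.74.

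The remaining enzymes were mostly low. Ube2j1, anchored in the membrane of the endoplasmic reticulum, where it marks misfolded proteins, stood at 24.6, 9.76, 33.6, 4.02, 12.3 and 5.96 CPM in HFD 1 to 6 and at 12.7, 12.4, 21.0, 16.2, 17.7 and 5.71 CPM in CD 1 to 6. Its log2 fold change of 0.08 ± 0.50 (adjusted p = 0.944, edgeR) had no stable sign and was -0.33 without HFD 3. Ube2l3, which serves HECT and RBR ligases, varied least of the 29 within a diet, at 6.81, 7.36, 9.27, 9.22, 9.41 and 8.61 CPM in HFD 1 to 6 and at 5.97, 7.21, 4.82, 8.84, 9.54 and 6.09 CPM in CD 1 to 6. Its log2 fold change was 0.26 ± 0.31 (adjusted p = 0.665, edgeR). Ube2cbp, an E2C-binding protein that is itself classed as a ligase despite its symbol, stood at 110.4, 94.1, 43.0, 30.0, 31.8 and 58.7 CPM in HFD 1 to 6 and at 18.8, 94.9, 17.96, 78.6, 45.9 and 22.8 CPM in CD 1 to 6. High and low pools occurred under both diets, with a log2 fold change of 0.40 ± 0.49 (adjusted p = 0.663, edgeR) that was 0.15 without HFD 1 and -0.39 over the libraries with odd counts. Ube2u (chromosome 4, 100478849 to 100550147), a little-studied member, stood at 6.00, 6.44, 17.2, 35.7, 29.9 and 37.7 CPM in HFD 1 to 6 and at 17.7, 3.46, 4.82, 2.74, 9.75 and 14.6 CPM in CD 1 to 6. HFD 4, 5 and 6 lay above every CD library, and its log2 fold change was 1.32 ± 0.58 (adjusted p = 0.204, edgeR), and 0.87 with the length trend removed. Ube2o and Ube2q2 had log2 fold changes of -0.18 ± 0.82 and -0.49 ± 0.33, and Ube2j2 of 0.27 ± 0.43.

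Pools of the same diet also differed from each other. The SD of log2(CPM + 1) within a diet had a median of 0.75 over the 29 genes and 0.66 over all tested genes. For 11 of the 29 the highest library was at least 10-fold above the lowest, among them Ube2e2 and Ube2o, whose lowest libraries held 1 count each, and for 11 the range was under 4-fold. Ube2a varied more within a diet than 99.4% of the tested genes, Ube2t more than 98.8% and Ube2c more than 96.6%. At the other end, Ube2l3 varied more than 0.533% of them, Ube2d2a more than 2.95% and Ube2k more than 5.88%. HFD 3 held the highest level for 9 of the 29 genes and the lowest for 3, and CD 3 held the lowest for 9 and the highest for 1. These counts were made for the 29 genes only, and whether other genes share the pattern was not tested.

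**Figure D4:**
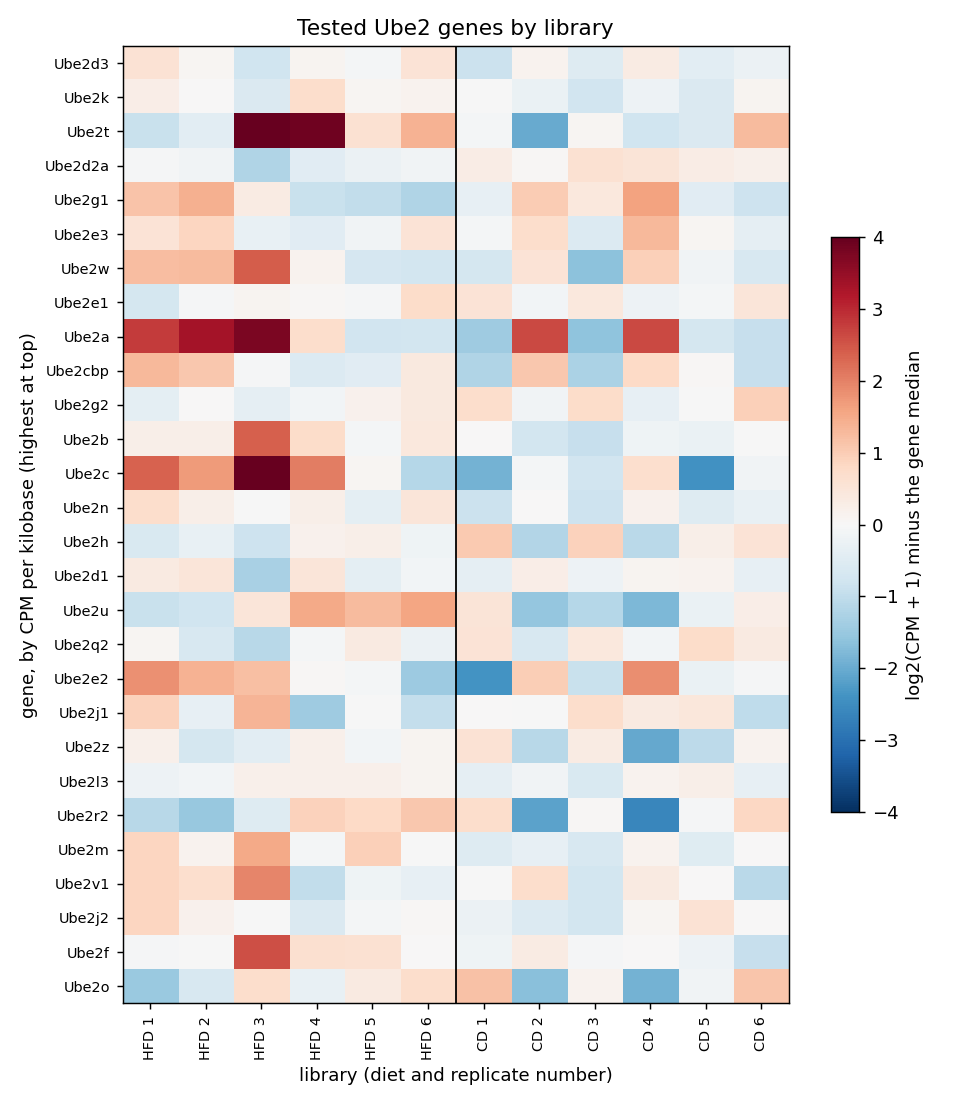
Difference of log2(CPM + 1) from each gene's median over 12 libraries, in rows for 28 tested Ube2 genes ordered by CPM per kilobase and in columns for the libraries; colours saturate at 4 on the log2 scale. Ube2a, Ube2t and Ube2c show the deepest colours, and Ube2l3, Ube2d2a and Ube2k stay pale.

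The pools did not order alike for all E2 genes. Ube2a was at 108 to 234 CPM in HFD 1, 2 and 3 and CD 2 and 4, and at 4.63 to 26.9 CPM in the other 7 libraries. The same 5 libraries were the 5 highest for Ube2w, Ube2e2 and Ube2v1, 3 of the 28 other tested Ube2 genes (10.7%), while this held for 7.43% of all other tested genes. They were the 5 lowest for Ube2h and Ube2r2, 2 of 28 (7.14%), against 4.98% of all other tested genes. Both shares are near those over all genes, so this order of the libraries was seen in many genes besides the E2s. Ube2h was at 33.1 to 61.3 CPM in those 5 libraries and at 67.5 to 159 CPM in the other 7, and Ube2r2 was at 0.498 to 5.38 and at 7.86 to 18.1 CPM. The labels give nothing that separates these pools, and both diets occur on each side.

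**Figure D5:**
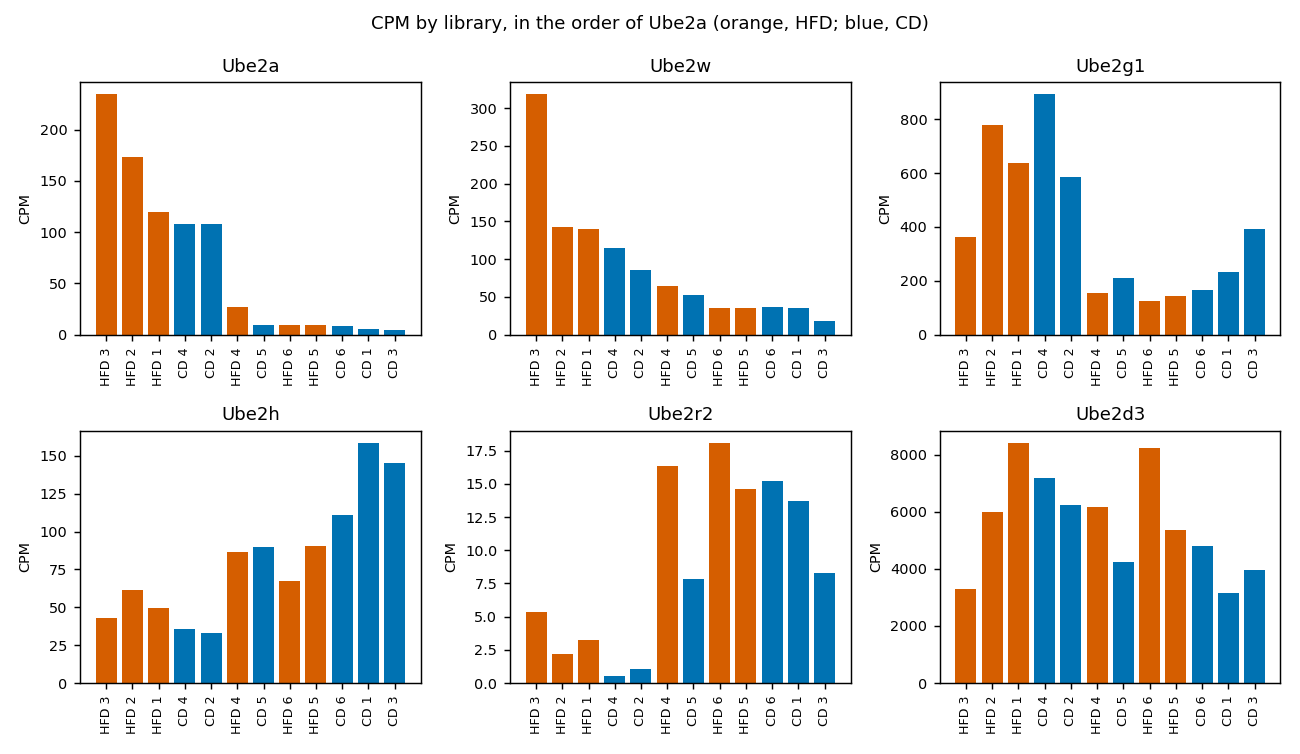
CPM of 6 Ube2 genes in each library (bars, HFD in orange and CD in blue), with the libraries in the order of Ube2a in every panel. The 5 libraries on the left are the 5 highest for Ube2a and Ube2w and the 5 lowest for Ube2h and Ube2r2, whereas Ube2d3 does not follow that order.

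The proteins that E2s work with were followed through lists of genes, and none of the listed genes had an adjusted p under 0.05 in edgeR. Each list can be read against all tested genes, of which 51.8% had fold changes above 0, and 13.4% were higher and 8.89% lower at an unadjusted p under 0.05. The counts and medians per list come from the edgeR fit with all libraries. How far they follow transcript length was not tested. Of the 13 genes for ubiquitin and ubiquitin-like proteins, 11 were tested, all 11 had fold changes above 0, and 6 had an unadjusted p under 0.05. The median log2 fold change was 0.99. Ubl5, a ubiquitin-like protein of splicing, was at 367 to 1074 CPM in HFD and 104 to 304 CPM in CD, with no overlap and a log2 fold change of 1.32 ± 0.32 (adjusted p = 0.0913, edgeR), and 0.69 over the libraries with odd counts.

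The E1 enzymes had fold changes below 0 for 6 of 8 tested genes, with a median of -0.24, and 1 had an unadjusted p under 0.05. That gene was Uba2, a subunit of the SUMO E1, at 27.1 to 130.4 CPM in HFD and 122 to 262 CPM in CD. Its log2 fold change was -0.74 ± 0.34 (adjusted p = 0.217, edgeR), and it ran from -1.26 to -0.35 over the alternatives tried. Uba1, the main E1 of ubiquitin, had a log2 fold change of -0.50 ± 0.29 (adjusted p = 0.309, edgeR). Among 13 tested proteins with an E2-like fold but another name, 9 had fold changes above 0 and 4 below, with a median of 0.44, and 5 were higher at an unadjusted p under 0.05. Rwdd1 was at 62.8 to 102 CPM in HFD and 23.3 to 55.9 CPM in CD without overlap, a log2 fold change of 1.24 ± 0.27 (adjusted p = 0.0913, edgeR) that was 0.43 with the length trend removed. Atg10, the E2-like enzyme that joins Atg12 to Atg5 in autophagy, had a log2 fold change of 0.72 ± 0.27 (adjusted p = 0.148, edgeR), and 0.30 with the length trend removed.

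The E3 ligases that work with these E2s had fold changes mostly below 0. Of 63 tested ligases, 47 had fold changes below 0 and 16 above, with a median of -0.46. Below 0 were thus 74.6% of them, against 48.2% of all tested genes, whose median was 0.04. At an unadjusted p under 0.05, 16 (25.4%) were lower and 2 (3.17%) were higher, where 8.89% and 13.4% of all tested genes were. Rbx1, the ring protein of the cullin ligases and partner of Ube2m, was at 791 to 2430 CPM in HFD and 168 to 583 CPM in CD without overlap, a log2 fold change of 1.60 ± 0.36 (adjusted p = 0.0913, edgeR), and 1.03 over the libraries with odd counts. Rnf14, an RBR ligase of the kind served by Ube2l3, was at 125 to 304 CPM in HFD and 353 to 1010.1 CPM in CD without overlap, a log2 fold change of -1.22 ± 0.31 (adjusted p = 0.0913, edgeR). Of 46 tested enzymes that remove ubiquitin or SUMO, 27 had fold changes below 0 and 19 above, with a median of -0.17, and 9 were lower and 7 higher at an unadjusted p under 0.05. Cops5, which strips NEDD8 from cullins, was at 21.4 to 154 CPM in HFD and 12.9 to 20.4 CPM in CD without overlap, a log2 fold change of 1.72 ± 0.46 (adjusted p = 0.0920, edgeR) that was 0.97 without HFD 3. Usp9x was at 52.9 to 80.4 CPM in HFD and 61.5 to 288 CPM in CD, with a log2 fold change of -1.17 ± 0.33 (adjusted p = 0.0946, edgeR).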

How the data were processed

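RNA of 12 pools of mouse oocytes was turned into full-length cDNA with SMART-Seq v4 and into libraries with Nextera XT, per the labels' protocols, a chemistry that does not mark the strand. The authors deposited whole-number counts per gene symbol, not normalised. Per the submitters' processing notes, STAR, HTSeq 1.0.0, DESeq2 1.0.19 and mm10 were used. How genes were annotated and counted is not given in the sources used here. In all, the 5 tally lines (62.3% to 72.9% of tallied reads) were left out. Counts were tested with edgeR 4.0.16 (R 4.3.3, TMM, default filter, robust quasi-likelihood test, diet as the only term), with DESeq2 1.42.0 and limma 3.58.1 (voom) as alternatives. The procedure was tested on simulated counts in which every gene had the same biological coefficient of variation, unlike the genes here. That test says little about the calls made here. The biological coefficient of variation was 64.0%. Read counts carry no molecular identifiers. Related genes were compared by an exact permutation test over libraries. Coordinates, lengths and coding sequences came from GENCODE M21.

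The members and lists were chosen with earlier results of these data known. Values per library are given for members with an unadjusted p under 0.05 and for the member of highest level per length in each role, and for 2 genes of smallest p per pathway list. Ube2a and Ube2w were added after their values were seen. Alternatives were other scalings, filters and tests, halved all-even libraries, odd-count libraries only, a removed length trend, a replicate block, and libraries left out. Results for some genes are not reported here.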

Additional observations from a re-analysis of the deposited data

Results flagged for a closer look

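In 3 of 58 groups of 6 libraries (29 genes in each diet), the highest or lowest library stood apart from the rest by more than Dixon's limit, a gap of 0.625 of the group's range. Chance flags about 1 in 20 groups. All 3 were HFD 3: Ube2b at 176 CPM, Ube2c at 307 CPM and Ube2f at 28.1 CPM. HFD 3 also had the most genes with a count, 14755. Its part in these levels was not tested.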

How the results depend on the processing

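The calls depend on the tool and on which pools enter. No Ube2 gene was called by edgeR, DESeq2 called 2 and edgeR over the libraries with odd counts called 2 of 30, in both cases Ube2c and Ube2t. Over all genes tested in the odd-count libraries 4.03% were called. The number of higher genes at an unadjusted p under 0.05 was 2 of 29 (6.9%) under the replicate block, where 7.34% of all tested genes were higher. It was 2 (6.9%) with both replicates 3 left out, against 7.26% of all tested genes. With each library left out it was 4 to 7 (13.8% to 24.1%), against 9.26% to 13.8%. With the length trend removed, 2 of 29 were lower at that p, Ube2d2a and Ube2e1 (-0.74), and 5 (17.2%) were higher. Over all tested genes 6.97% were lower and 8.21% higher in that setting. The median log2 fold change was 0.15 over the libraries with odd counts. The ratio of Ube2d3 to Ube2d2a differed by 1.02 under the replicate block (adjusted exact p = 0.219). There the smallest unadjusted exact p that 6 replicate pairs allow is 0.03125. The difference in that ratio was 0.86 over libraries with odd counts and 0.92 with both replicates 3 left out. Deviations of same-numbered libraries from the mean of their own diet, gene by gene, correlated from -0.452 to 0.550, so the numbers are not taken as pairs. Over the libraries with odd counts the sign turned for Ube2d3 (-0.24), Ube2cbp (-0.39), Ube2k (-0.014), Ube2d1 (-0.82), Ube2o (0.33), Ube2j2 (-0.034), Ube2z (-0.054) and the log2 ratios of Ube2a to Ube2b (-0.082), Ube2j1 to Ube2j2 (0.49), Ube2g1 to Ube2g2 (-0.17) and Ube2e1 to Ube2e3 (0.26). With both replicates 3 left out it turned for Ube2g1 to Ube2g2 (-0.094). Ube2j1 turned with no filter (-0.0056), in voom (-0.46), under the replicate block (-0.17), with both replicates 3 left out (-0.20) and with 1 library left out (-0.33 to 0.26). Ube2e3 turned in voom (0.047), under the replicate block (0.025) and without HFD 3, HFD 4, CD 2 or CD 4. Ube2o turned in voom (0.11), under the replicate block (0.54), with the length trend removed (0.029) and without HFD 1, CD 1 or CD 6. Ube2d1 turned with total gene counts (-0.052), under the replicate block, with the length trend removed (-0.36) and without HFD 2 or HFD 4. Ube2g1 turned without CD 4 (0.21), Ube2z with total gene counts and without CD 4, and Ube2j2 in voom. Leaving out each library gave ranges of -0.26 to 0.49 for Ube2g1 to Ube2g2, -0.47 to 0.051 for Ube2e1 to Ube2e3, -0.00091 to 1.07 for Ube2a to Ube2b and -0.25 to 0.66 for Ube2r2 to Cdc34. The causes were not tested. Fold changes of the 8 genes with an unadjusted p under 0.05 kept their direction under all 23 alternatives. These genes were picked by their p in the same libraries, and the alternatives reuse those libraries or part of them. A kept direction was therefore likely beforehand and is no separate support.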
